A study of Mus musculus with 26 samples.

Results

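A set of 10 genes that mark hepatic stellate cells and liver fibroblasts, collagens left out, was followed through mouse liver tumours and control livers by bulk RNA sequencing. The genes were Lrat, Des, Reln, Hgf, Dcn, Lum, Pdgfra, Pdgfrb, Acta2 and Timp1. They were taken by symbol from a table of 35976 genes and gene models, which held all 10. The rule that picks them uses symbols, not measured values, but the symbols were chosen with earlier results of these data known.

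Hepatic stellate cells sit between hepatocytes and the sinusoidal endothelium. In healthy liver they store vitamin A as retinyl esters, and on injury they turn into contractile cells that lay down scar matrix. Lrat esterifies retinol for that store. Des is desmin, the intermediate filament long used to stain rodent stellate cells. Reln encodes reelin, a secreted glycoprotein, and Hgf encodes hepatocyte growth factor, a mesenchymal signal to hepatocytes through the receptor Met. Dcn and Lum encode decorin and lumican, small leucine-rich proteoglycans that bind collagen fibrils. Pdgfra and Pdgfrb are the receptors for platelet-derived growth factors. Acta2 is alpha smooth muscle actin, the usual stain for the activated state, and Timp1 inhibits matrix metalloproteinases.

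The data comprised 26 libraries in 4 groups. Cyp1a2_CA tumours came from mice with Cyp1a2-CreERT2, a Ctnnb1(ex3)fl/+ allele and Arid2fl/fl, and gave 10 libraries from 9 animal numbers. Gls2_CA tumours carried the same floxed alleles under Gls2-CreERT2 and gave 9 libraries from 5 animal numbers. The Cyp1a2_C group was 1 tumour library with Cyp1a2-CreERT2 and Ctnnb1(ex3)fl/+ but no Arid2 deletion. WT livers were 6 libraries from C57BL/6J mice given AAV-Cre and kept for up to 12 months. Tumour mice were a mix of C57BL/6J and Swiss Webster, received tamoxifen on postnatal day 28 and were followed for 6 to 12 months. WT mice differed from tumour mice in strain and in the way Cre was delivered, so those differences and the tumour cannot be told apart. Both drivers are hepatocyte genes, Cyp1a2 of the zone around the central vein and Gls2 of the zone around the portal vein. The comparison between them asks whether the zone of origin leaves a mark on these genes.

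Totals were 37051941 to 49254470 counts in Cyp1a2_CA libraries, 36992043 to 42865787 in Gls2_CA, 41038144 in Cyp1a2_C and 13486530 to 16975288 in WT. Arid2 itself averaged 30.7 ± 4.46 CPM in 9 Cyp1a2_CA animals, 35.7 ± 8.74 CPM in 5 Gls2_CA animals and 66.9 ± 4.48 CPM in 6 WT animals (SD), with every tumour animal below every WT animal. The Cyp1a2_C library, which has no Arid2 deletion by its label, was also below WT at 42.5 CPM. Alb, the serum albumin gene of hepatocytes, averaged 11563 ± 7755 CPM in Cyp1a2_CA, 6612 ± 2977 CPM in Gls2_CA and 58330.4 ± 8890.5 CPM in WT.

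In 4 tumour libraries Ttn, the giant sarcomere protein titin, exceeded 1000 CPM. Ttn stood at 20952 CPM in Cyp1a2_CA replicate 6, 20651 in Cyp1a2_CA replicate 8, 30170.5 in Gls2_CA replicate 3 and 8668 in the Cyp1a2_C library. It ranged from 2.26 to 92.9 CPM in the other 16 tumour libraries and from 1.14 to 2.21 CPM in WT. These 4 libraries are called Ttn-high here, and because a measured value sets them apart they are only described and enter no test as a group. Fold changes that rest on them are given again without them.

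Levels are CPM on TMM-scaled library totals (read counts normalised for sequencing depth), with libraries of 1 animal number pooled, and n is animals. Differences were tested with edgeR's quasi-likelihood test over all genes with Benjamini-Hochberg adjustment, and a gene is said to rise or fall where the adjusted p was under 0.05. In Cyp1a2_CA against WT, 70.9% of all tested genes passed. Of the 10 markers, 7 did: Pdgfra, Acta2 and Timp1 rose, where 38.3% of all genes did, and Lrat, Des, Dcn and Lum fell, where 32.7% did. Timp1 passed the filter on low counts only through the 6 Cyp1a2_CA animals above the WT range. It could thus enter the test only as a gene higher in tumours, and its call adds little to that count. In Gls2_CA against WT the background was 73.2%, and 6 of 9 tested markers passed: Acta2 rose (39.2% of all genes) and Lrat, Des, Reln, Dcn and Lum fell (34%). Both shares of markers are near the background, so the number called says little about these genes, and what follows is their direction and size. The median log2 fold change of the markers was 0.11 in Cyp1a2_CA, against 0.17 over all genes tested, and -1.12 in Gls2_CA, against 0.14. Since tissue was measured in bulk, fewer cells of a type and less RNA per cell cannot be told apart.

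**Figure D1:**
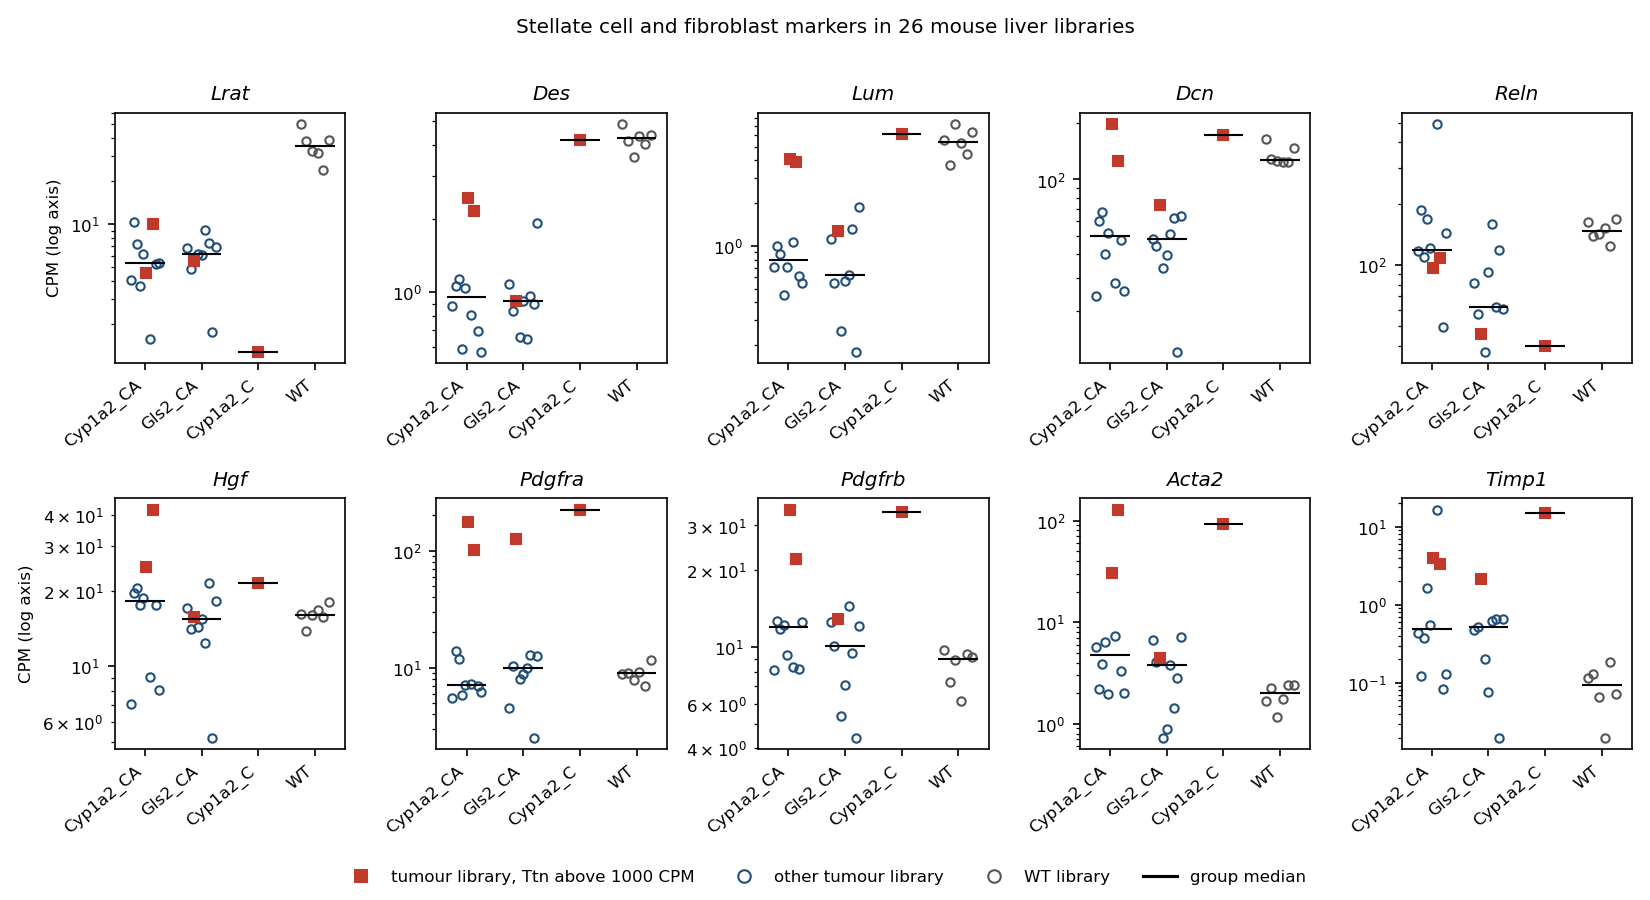
Level of each marker in every library, in CPM on log axes. Red squares are the 4 tumour libraries with Ttn above 1000 CPM, open circles the other tumour and WT libraries, bars the median over a group's libraries, and a value of 0 is drawn at 0.02. Lrat lies below all 6 WT libraries in all 20 tumour libraries, while Pdgfra is high in the 4 red squares.

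Lrat and Des, both classed as stellate cell genes, fell in tumours of both drivers. Lrat (chr3:82892579-82903973, minus strand, mm10) had a lowest, median and highest level of 1.56, 5.28 and 10.4 CPM over 9 Cyp1a2_CA animals. The 5 Gls2_CA animals had 6.78, 4.85, 5.53, 7.11 and 5.50 CPM. The WT animals had 24.0, 35.4 and 49.96 CPM as lowest, median and highest. The lowest WT liver was therefore above every tumour library, with no overlap in any of the 20. Its log2 fold change was -2.65 ± 0.31 (SE) in Cyp1a2_CA (adjusted p = 1.49e-06), a level 6.29-fold lower, and -2.67 ± 0.20 in Gls2_CA (adjusted p = 2.92e-07), 6.34-fold lower. Every Cyp1a2_CA animal lay below every WT animal, as it did for 21% of all genes tested, and every Gls2_CA animal did so too, as for 26.4%.

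Des (chr1:75360329-75368579, plus strand) followed the same order at a lower level. It had 0.571, 0.879 and 2.43 CPM (lowest, median, highest) in Cyp1a2_CA animals. In Gls2_CA the values were 1.09, 0.842, 0.918, 0.741 and 1.31 CPM. WT livers had 3.58, 4.26 and 4.85 CPM. No tumour animal of either group reached the lowest WT liver, and the log2 fold changes were -1.90 ± 0.31 (adjusted p = 4.56e-05) and -2.18 ± 0.20 (adjusted p = 1.67e-06). Both Lrat and Des kept their direction and their call under every alternative run in both comparisons. The annotation places an antisense gene over each of them (Rbm46os over Lrat, Gm15179 over Des), and since the strand setting of the counting is not given in the sources used here, reads of the partner cannot be told apart.

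The promoters of these genes are shown because the pair fell together in all tumour groups with replicates, and are set beside those of Acta2 and Timp1, which rose. Sequences are RefSeq's, GRCm38.p6, from 250 bases before to 50 after the start site, on the strand of the gene, and 7 of the 10 markers had an entry. Capitals mark GGGCGG (GC box) and GGAATG on either strand, which do not overlap here.
Lrat (chr3:82903925-82904224, minus strand): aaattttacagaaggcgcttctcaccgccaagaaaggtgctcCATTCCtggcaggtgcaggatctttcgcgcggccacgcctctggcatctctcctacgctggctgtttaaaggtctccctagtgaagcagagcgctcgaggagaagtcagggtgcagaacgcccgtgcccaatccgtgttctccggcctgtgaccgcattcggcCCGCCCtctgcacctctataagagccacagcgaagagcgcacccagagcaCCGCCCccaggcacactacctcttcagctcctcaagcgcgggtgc
Des (chr1:75360042-75360341, plus strand): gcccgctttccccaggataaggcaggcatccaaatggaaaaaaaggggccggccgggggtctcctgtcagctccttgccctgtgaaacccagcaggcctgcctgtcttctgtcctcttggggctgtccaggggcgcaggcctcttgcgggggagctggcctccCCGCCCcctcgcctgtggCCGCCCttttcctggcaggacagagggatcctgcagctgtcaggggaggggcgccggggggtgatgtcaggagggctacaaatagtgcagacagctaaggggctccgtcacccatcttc
Acta2 (chr19:34255324-34255623, minus strand): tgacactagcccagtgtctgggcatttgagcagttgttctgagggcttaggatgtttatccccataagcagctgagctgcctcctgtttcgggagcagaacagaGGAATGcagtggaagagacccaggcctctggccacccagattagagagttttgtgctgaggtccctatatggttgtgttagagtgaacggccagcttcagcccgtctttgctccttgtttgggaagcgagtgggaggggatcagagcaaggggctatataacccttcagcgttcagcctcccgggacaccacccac
Timp1 (chrX:20869916-20870215, plus strand): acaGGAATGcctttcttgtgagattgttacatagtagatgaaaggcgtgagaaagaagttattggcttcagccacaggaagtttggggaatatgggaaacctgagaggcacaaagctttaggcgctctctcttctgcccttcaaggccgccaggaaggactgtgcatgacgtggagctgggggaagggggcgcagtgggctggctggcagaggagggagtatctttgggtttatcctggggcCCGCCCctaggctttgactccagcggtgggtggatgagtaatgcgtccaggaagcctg
Lrat and Des each held 2 GC boxes, Timp1 held 1 and Acta2 held 0, and 35.7% of 32851 promoters of that length hold at least 1. The GGAATG motif was found once in Lrat, in Acta2 and in Timp1, and in 14.7% of all promoters. Reln, which is not printed, held 6 GC boxes in a window of 80.7% G and C. A CArG box, the element bound by serum response factor, had no exact match to its consensus in the 8 windows of the 7 markers, against 1.63% of all promoters. Elements with a mismatch, as serum response factor is known to bind in the Acta2 promoter, were not counted. CCAAT was present in Lrat, in Timp1 and in 1 of the 2 windows of Hgf, against 37.4% of all promoters. A match is a description of these windows only.

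Reln (chr5:21884454-22344702, minus strand) fell in Gls2_CA tumours and did not pass in Cyp1a2_CA tumours, and the difference between the drivers did not pass either, as given further on. It had 49.5, 116 and 491 CPM (lowest, median, highest) in Cyp1a2_CA animals. Gls2_CA animals had 81.3, 57.1, 45.8, 95.8 and 78.4 CPM. WT animals had 123, 146 and 167 CPM. All 5 Gls2_CA animals lay below the lowest WT liver, whereas the Cyp1a2_CA animals spread on both sides of the WT range, 5 below and 2 above. The log2 fold change against WT was -1.12 ± 0.18 in Gls2_CA (adjusted p = 0.000128) and 0.06 ± 0.37 in Cyp1a2_CA (adjusted p = 0.887). The highest value was that of Cyp1a2_CA replicate 7, and without it the second estimate was -0.37 (adjusted p = 0.128). Reln has the longest exon sequence of the 10 genes, 23738 bases, and with an offset for exon length and GC content the estimates became -1.84 in Cyp1a2_CA (adjusted p = 0.000981) and in the Gls2_CA animals -2.996 (adjusted p = 6.34e-06).

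Hgf (chr5:16553495-16620152, plus strand) passed in neither comparison. It ranged from 7.08 to 41.8 CPM with a median of 18.2 in Cyp1a2_CA animals. The Gls2_CA animals had 17.0, 14.1, 15.7, 14.1 and 15.3 CPM, and WT livers ranged from 13.8 to 18.0 with a median of 16.0. All 5 Gls2_CA values lay inside the WT range. The log2 difference was 0.15 in Cyp1a2_CA with a 95% interval from -0.54 to 0.84 (adjusted p = 0.693), and -0.14 in Gls2_CA with an interval from -0.38 to 0.09 (adjusted p = 0.241). With upper-quartile factors the Gls2_CA value was -0.37 (adjusted p = 0.00747) and -0.51 once length and GC were offset (adjusted p = 0.00178). The Cyp1a2_CA value turned negative under several settings, among them -0.10 without replicate 8, which held the highest level, and passed the threshold under none.

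The fibril-binding proteoglycans Dcn and Lum fell in tumours of both drivers. Dcn (chr10:97479609-97518143, plus strand) had 24.0, 47.4 and 197 CPM (lowest, median, highest) in Cyp1a2_CA animals. Gls2_CA animals had 48.0, 44.2, 73.0, 41.4 and 47.6 CPM. WT livers had 124, 127 and 164 CPM. All Gls2_CA animals were below WT, and so were 7 of 9 Cyp1a2_CA animals, the exceptions being the Ttn-high replicates 6 and 8. On the log2 scale Dcn changed by -1.48 ± 0.18 in Gls2_CA (adjusted p = 1.35e-05) and -1.03 ± 0.41 in Cyp1a2_CA (adjusted p = 0.0356). Without the Ttn-high libraries the Cyp1a2_CA value was -1.74 (adjusted p = 9.96e-06). With them the call was lost with no filter on low counts (-0.99, adjusted p = 0.0582). Leaving out the animal of replicate 1, 2, 4 with 5, 7, 9 or 10, or WT replicate 1, 2 or 6, also ended it, at -0.91 to -1.04 with an adjusted p from 0.051 to 0.066.

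Lum (chr10:97565128-97572703, plus strand), which neighbours Dcn on the chromosome, showed the same split. Its lowest, median and highest levels were 0.545, 0.873 and 4.09 CPM in Cyp1a2_CA animals. The Gls2_CA animals had 1.11, 0.545, 1.28, 0.477 and 1.18 CPM, and WT livers had 3.72, 5.40 and 7.16 CPM. Again every Gls2_CA animal was below WT and the 2 Ttn-high Cyp1a2_CA libraries, at 4.09 and 3.90 CPM, alone reached the WT range. Lum thus differed from WT by -2.62 ± 0.32 on the log2 scale in Gls2_CA (adjusted p = 1.76e-05) and -1.91 ± 0.48 in Cyp1a2_CA (adjusted p = 0.0023), or -2.88 (adjusted p = 4.4e-08) in Cyp1a2_CA without the Ttn-high libraries.

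The PDGF receptors gave no stable difference from WT. Pdgfra (chr5:75152292-75198215, plus strand), a marker shared by quiescent stellate cells and portal fibroblasts, had 5.49, 7.23 and 175 CPM in Cyp1a2_CA animals as lowest, median and highest. In Gls2_CA it had 4.51, 10.3, 126, 8.91 and 9.64 CPM, and in WT 7.03, 8.95 and 11.6 CPM. The medians of both tumour groups with replicates were thus within the WT range, and 3 of their animals, each with a Ttn-high library, stood at 102 CPM or more. As a log2 fold change this gave 2.01 ± 0.87 for Cyp1a2_CA (adjusted p = 0.0482). For Gls2_CA it was 1.82 ± 0.78 (adjusted p = 0.0529). Without the Ttn-high libraries it was -0.17 (adjusted p = 0.495) and -0.18 (adjusted p = 0.454). The call in Cyp1a2_CA was also lost with the animal of replicate 6 (1.11, adjusted p = 0.152) or 8 (1.66, adjusted p = 0.0897) left out, and with any single WT liver left out (1.95 to 2.10, adjusted p 0.0669 to 0.0843). Other scalings, filters, tools and replicate units ended it in 9 further settings, at 0.17 to 2.03 (adjusted p 0.0503 to 0.706). In Gls2_CA, leaving out any animal other than that of replicate 3 gave 2.05 to 2.11 (adjusted p 0.0231 to 0.0394).

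Pdgfrb (chr18:61045150-61085061, plus strand), carried by stellate cells and pericytes, ranged from 8.15 to 34.5 CPM with a median of 11.7 in Cyp1a2_CA animals. The Gls2_CA animals had 12.6, 10.1, 12.9, 8.93 and 8.92 CPM, and WT livers ranged from 6.16 to 9.71 with a median of 9.01. No tumour animal was below the WT range, and 6 of 9 and 3 of 5 were above it. The log2 fold change of 0.71 ± 0.32 in Cyp1a2_CA did not pass (adjusted p = 0.0552), nor did 0.28 ± 0.17 in Gls2_CA (adjusted p = 0.166). Leaving out the animal of Cyp1a2_CA replicate 1, 4 with 5, 7 or 9 brought the first to 0.76 to 0.79 (adjusted p 0.0348 to 0.0499). DESeq2 (0.71, adjusted p = 0.0372), quality-weighted limma-voom (0.46, adjusted p = 0.033) and a fit of all 3 groups (0.71, adjusted p = 0.0358) called it too. The value was 0.22 (adjusted p = 0.22) without the Ttn-high libraries and 0.42 (adjusted p = 0.104) without replicate 6 alone. Offsetting length and GC gave 0.04 (adjusted p = 0.893), and the Gls2_CA value turned to -0.34 (adjusted p = 0.0668).

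Acta2, the marker of contractile stellate cells and of vascular smooth muscle, rose in tumours of both drivers. Acta2 (chr19:34241090-34255590, minus strand) had 2.02, 4.003 and 127 CPM (lowest, median, highest) in Cyp1a2_CA animals. Gls2_CA animals had 6.73, 4.06, 4.45, 1.80 and 4.003 CPM. WT livers had 1.17, 1.99 and 2.42 CPM. Above the highest WT liver were 7 of 9 Cyp1a2_CA and 4 of 5 Gls2_CA animals. No marker tested had every animal of a group above WT, which held for 23.2% of genes in Cyp1a2_CA and 29.6% in Gls2_CA. Its rise on the log2 scale was 3.37 ± 1.03 in Cyp1a2_CA (adjusted p = 0.00836) and in the Gls2_CA animals 1.05 ± 0.32 (adjusted p = 0.0101). The first was 1.87 without replicate 8 (adjusted p = 0.0119), and without the Ttn-high libraries it was 0.99 (adjusted p = 0.00984). The rise in Gls2_CA did not pass when all 3 groups shared a fit (adjusted p = 0.333), when every library counted as a replicate (0.83, adjusted p = 0.118), in limma-voom with quality weights (0.54, adjusted p = 0.142) or with a random effect of animal (0.60, adjusted p = 0.438).

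Timp1 (chrX:20870166-20874735, plus strand, overlapping Syn1 on the other strand, whose reads cannot be told apart) was almost silent in WT liver, with 9 counts over the 6 libraries and 0 to 0.183 CPM. Cyp1a2_CA animals had 0.0839, 0.439 and 16.4 CPM as lowest, median and highest. In Gls2_CA it had 0.477, 0.520, 2.13, 0.298 and 0.460 CPM. All 5 Gls2_CA animals and 6 of 9 Cyp1a2_CA animals lay above the highest WT liver. Of the tumour libraries 15 of 20 exceeded the highest WT library. The log2 fold change in Cyp1a2_CA was 4.82 ± 1.37 (adjusted p = 0.00534). Leaving out any of the 6 animals above the WT range removed the gene through the filter on low counts, so the size without replicate 7, the highest animal, was not obtained. In Gls2_CA the gene was removed by the filter on low counts. With no filter its value there was 2.996 (adjusted p = 0.00345), and with every library as a replicate 2.56 (adjusted p = 0.0176). It did not pass with all 3 groups in 1 fit (2.92, adjusted p = 0.0556) or with a random effect of animal (1.77, adjusted p = 0.258). Without the Ttn-high libraries, and with tumour counts thinned to the WT depth, Timp1 did not pass the filter in either comparison.

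**Figure D2:**
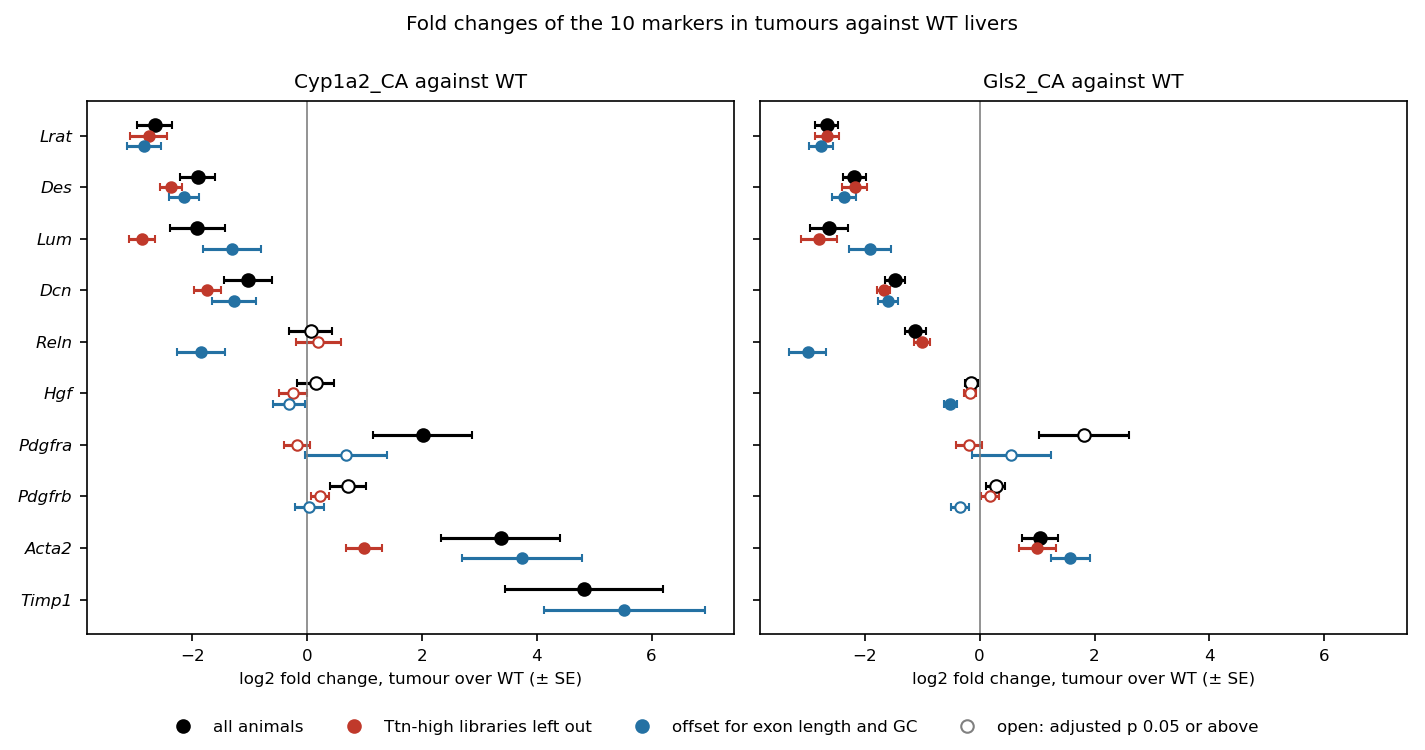
Log2 fold change of each marker in tumours over WT livers with its SE, for Cyp1a2_CA on the left and Gls2_CA on the right. Black points are all animals, red points leave out the Ttn-high libraries, blue points add an offset for exon length and GC, and open points have an adjusted p of 0.05 or above. Lrat, Des, Lum and Dcn lie left of 0 in all 3 colours, Pdgfra moves to -0.17 and -0.18 in red, and Reln shifts to -1.84 and -2.996 in blue.

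All 4 Ttn-high libraries lay apart from the other 16 tumour libraries in Pdgfra and Dcn, and overlapped them in the other 8 markers. Pdgfra stood at 175, 102, 126 and 223 CPM in Cyp1a2_CA replicates 6 and 8, Gls2_CA replicate 3 and Cyp1a2_C, against 2.53 to 13.9 CPM in the other 16 tumour libraries. Dcn stood at 197, 125, 73.0 and 173 CPM in the same libraries, against 12.0 to 67.3 CPM. For these 2 genes all 4 libraries lay above the other 16, as they did for 9.87% of the genes that passed the filter on low counts. No marker had all 4 below the other 16, against 8.44% of those genes.

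For Des, Pdgfrb, Acta2, Lum and Hgf, 3 of the 4 lay above all others, and Gls2_CA replicate 3 was the exception each time. Acta2 illustrates this with 30.2, 127 and 91.7 CPM in Cyp1a2_CA replicates 6 and 8 and Cyp1a2_C, but 4.45 CPM in Gls2_CA replicate 3, inside the 0.731 to 7.23 CPM of the others. At least 3 of 4 libraries above the rest was therefore seen for 7 of the 10 markers, of which 9 passed that filter, against 15% of all genes that passed. For Hgf the margin was slight, with Cyp1a2_C at 21.47 CPM and Gls2_CA replicate 7 at 21.45 CPM. Within Cyp1a2_CA alone, the same 7 markers were higher in replicates 6 and 8 than in the other 8 libraries, against 13.9% of genes. That follows from the values above and is no separate evidence. No test was made of these libraries as a group.

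Lrat, Reln and Timp1 did not follow. Lrat was 4.52, 10.04, 5.53 and 1.27 CPM in the Ttn-high libraries, in the order above, against 1.56 to 10.4 CPM in the other 16. Reln was 96.7, 108, 45.8 and 40.1 CPM, against 37.3 to 491 CPM, so all 4 lay below the WT minimum of 123 CPM. Timp1, at 3.92, 3.34, 2.13 and 14.7 CPM, was above every other tumour library except Cyp1a2_CA replicate 7. In the other 16 tumour libraries Lrat, Dcn, Des and Lum were below every WT library in 16 of 16, while Pdgfra was below in 6 and above in 4.

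**Figure D3:**
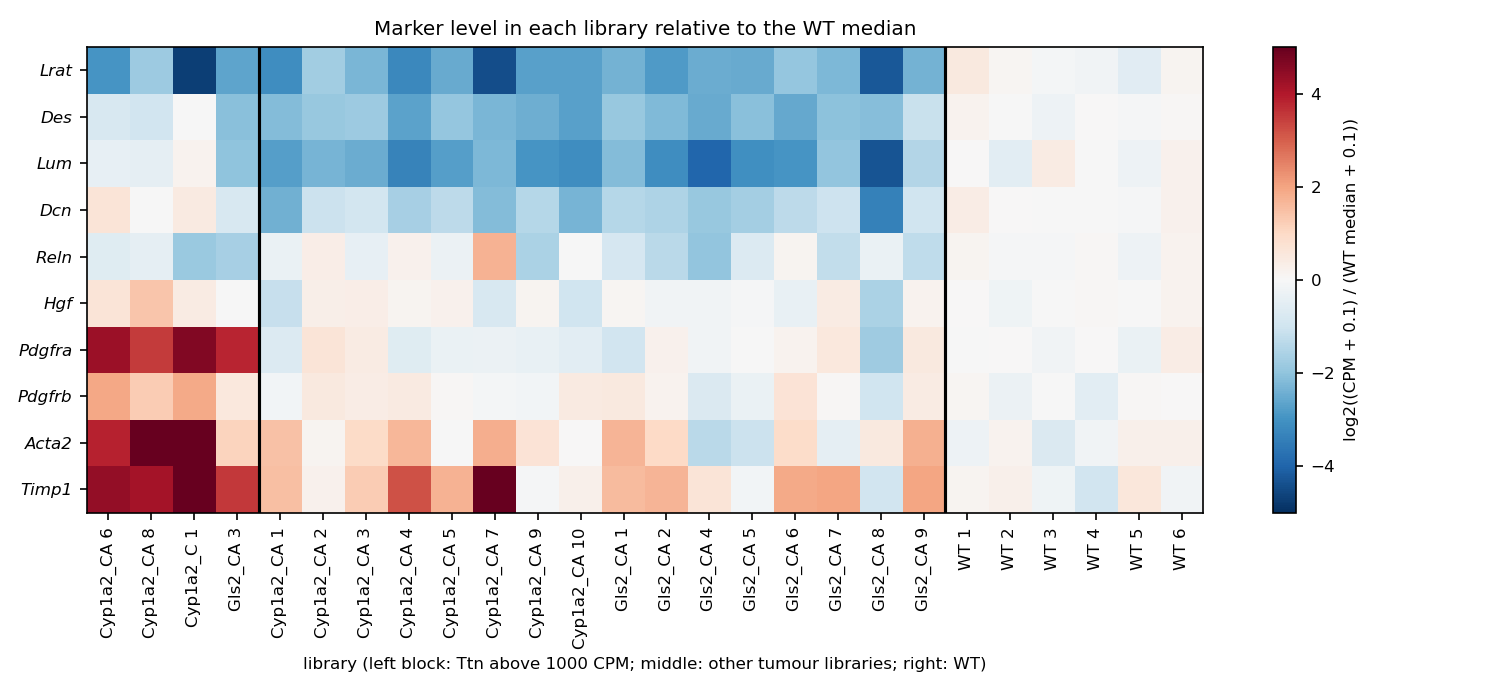
Level of each marker in every library as log2 of its ratio to the WT median, with 0.1 CPM added to both. Columns are the 4 Ttn-high libraries, then the other 16 tumour libraries, then 6 WT libraries, and colours end at 5 in either direction. The Ttn-high block is red for Pdgfra, Acta2 and Timp1 and blue for Lrat, and the middle block is blue for Lrat, Des, Lum and Dcn in all 16 columns.

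Lists of other cell types differed between these libraries too, and their part in the marker levels was not tested. The portal fibroblast and mesothelial list summed to 225 to 448 CPM in the Ttn-high libraries, 19.1 to 111 CPM in the other tumours and 33.02 to 43.02 CPM in WT. Of its 18 genes 3 were above the rest in all 4. Under 1 CPM in all 4 were 7, so this sum does not stand for the whole list. The lymphatic endothelium list summed to 853 to 1481 CPM, 252 to 784 CPM and 341 to 456 CPM in those sets of libraries. Only 1 of its 6 genes was above the rest in all 4, and 2 were under 1 CPM in all 4, so the sum does not stand for the list as a whole. The hepatocyte list summed to 1072 to 21590.2 CPM in the Ttn-high libraries, 27117 to 113898 CPM in the other tumours and 110778 to 132458 CPM in WT. Among the other tumours its median was 37527 CPM, and only Cyp1a2_CA replicate 7 reached the WT range. The smooth muscle and pericyte list summed to 682 to 1067, 273 to 622 and 158 to 200.2 CPM in Ttn-high, other tumour and WT libraries. Of its 10 genes 1, Smtn, was above the rest in all 4. The neural and Schwann list summed to 178 to 889, 35.4 to 98.7 and 13.01 to 18.8 CPM, with 3 of its 10 genes above the rest in all 4. Of the 10 genes, 3 were under 1 CPM in all 4. The skeletal and cardiac muscle list summed to 9376 to 31124 CPM in the Ttn-high libraries, 286 to 1559.8 in the other tumours and 106 to 148 in WT. Ttn made up most of it in the Ttn-high libraries, and 4 of its 20 genes lay above the rest in all 4 of them. Tnnt2, cardiac troponin T, stood between 102 and 672 CPM there, and the other tumours reached 9.04 CPM, whereas Neb (nebulin) did not separate. Of the 20 muscle genes 14 were under 1 CPM in all 4 libraries. Among genes that define muscle, Ckm had 2 counts, Myod1 6 and Myog 17 over the 4 libraries, and Myh6 and Pax7 had 0. The cholangiocyte list overlapped, with 108 to 320.1 CPM in the Ttn-high libraries against 54.4 to 254 in the other tumours, and so did the Kupffer cell and macrophage list, with 135 to 180.3 CPM against 75.4 to 303. The liver endothelium list did not separate either, with 214 to 349.6 CPM in the Ttn-high libraries against 218 to 388 in the other tumours, both below the 440.2 to 516 CPM of WT.

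Between tumours of the 2 drivers no marker passed, and 0% of 17129 tested genes did so with edgeR. At an unadjusted p under 0.05 there were 554 genes, 3.23%, among them 1 marker. That marker was Reln, which averaged 160 ± 129 CPM in 9 Cyp1a2_CA animals and 71.7 ± 20.0 CPM in 5 Gls2_CA animals (SD). Its log2 difference was 1.18 with a 95% interval from 0.21 to 2.14 (p = 0.0203, adjusted p = 1, edgeR), and 8 of 9 Cyp1a2_CA animals were above the highest Gls2_CA animal. The lowest of those 8 stood at 96.7 CPM, against 95.8 CPM in that Gls2_CA animal, whose libraries ranged from 37.3 to 159 CPM. DESeq2 called 20 genes, limma-voom with quality weights 10 and edgeR with every library as a replicate 6, and none of these was a marker. For the stellate markers Lrat and Des the intervals were -0.72 to 0.73 and -0.51 to 1.04. For Dcn the interval was -0.57 to 1.45, for Lum -0.54 to 1.94, for Hgf -0.48 to 1.05 and for Pdgfrb -0.31 to 1.16, so each of these intervals, like that of Des, still holds a difference of 1 on the log2 scale. No marker separated every animal of one driver from every animal of the other, and 0.0467% of genes did so upward and 0.0525% downward in Cyp1a2_CA. Intervals were wide for Pdgfra (-2.11 to 2.51), Acta2 (-0.02 to 4.61) and Timp1 (-0.73 to 4.52).

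The Cyp1a2_C library, 1 tumour with activated beta-catenin and no floxed Arid2 by its label, has no replicate and is itself Ttn-high. It had the lowest Lrat of all 26 libraries, 1.27 CPM, and Reln at 40.1 CPM. Des at 4.17 CPM and Lum at 6.13 CPM were inside the WT ranges. Dcn (173 CPM), Pdgfra (223), Pdgfrb (33.9), Acta2 (91.7), Hgf (21.5) and Timp1 (14.7) were above the highest WT library. Of these 6, Pdgfra had its highest level of all libraries here. The Arid2 genotype and the Ttn-high state cannot be told apart in it.

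Libraries from 1 animal number gave a view of the spread between samples of a liver. In the Gls2_CA animal of replicates 7, 8 and 9, Dcn was 62.3, 12.0 and 63.7 CPM, Hgf 21.4, 5.22 and 18.2 CPM, and Lrat 7.40, 1.76 and 6.88 CPM. Replicate 8 was thus low in all of them, by 4.11-fold to 5.30-fold against the highest, and it was also the lowest of the 16 other tumour libraries for Pdgfra, Pdgfrb, Lum and Timp1. Reln ran the other way there, at 62.3, 118 and 60.3 CPM. In the Gls2_CA animal of replicates 4, 5 and 6, Reln was 37.3, 92.2 and 159 CPM and Acta2 0.731, 0.896 and 3.80 CPM, while Dcn differed by 1.51-fold and Hgf by 1.25-fold. In the Cyp1a2_CA animal of replicates 4 and 5, the larger ratios were those of Acta2 (3.26) and Timp1 (3.03), and Hgf differed by 1.07-fold.

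Per kilobase of exon, the order of the markers changed between tumour and control. In WT livers Dcn was highest at 23.2 ± 2.80 CPM per kb (SD, n = 6). Lrat (6.71 ± 1.63) and Reln (6.22 ± 0.69) came next and did not differ beyond their spread. Hgf (2.23 ± 0.19) and Lum (2.21 ± 0.51) did not differ beyond theirs. Pdgfrb (1.54 ± 0.25), Des (1.13 ± 0.11), Pdgfra (0.89 ± 0.15) and Acta2 (0.88 ± 0.23) followed, and Timp1 was at 0.105 ± 0.071. In Gls2_CA animals Dcn was still highest at 8.71 ± 2.17, followed by Reln at 3.02 ± 0.84. Below them lay Hgf at 2.12 ± 0.17, Pdgfrb at 1.95 ± 0.35 and Acta2 at 1.92 ± 0.80, and Lrat dropped to 1.11 ± 0.18 CPM per kb. Pdgfra (3.18 ± 5.25), high in the animal of replicate 3 alone, and Timp1 (0.874 ± 0.855) varied too widely to place. Lum (0.38 ± 0.15) and Des (0.26 ± 0.06) were lowest (SD, n = 5 for each). In Cyp1a2_CA animals the SD of Pdgfra, Acta2 and Timp1 exceeded their mean, and for Dcn and Lum it was nearly as large, so no order is given there.

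Other genes of the same cells and pathways, taken from lists, are given for comparison. Their counts stand against 38.3% of all genes rising and 32.7% falling in Cyp1a2_CA, and 39.2% rising and 34% falling in Gls2_CA. No list was tested for enrichment, and nothing is read from counts near those shares. Among other stellate cell markers, 3 rose and 8 fell of 19 tested in Cyp1a2_CA, and 4 rose and 10 fell of 19 in Gls2_CA, while 8 and 5 did not pass. Hand2, a mesenchymal transcription factor of stellate cells, fell to 1.92 CPM in Cyp1a2_CA and 1.59 in Gls2_CA, against 10.3 CPM in WT (log2 -2.48 and -2.77, adjusted p = 7.46e-06 and 2.47e-06). Bmp5, a growth factor gene, fell (log2 -2.22 and -2.80), as did Colec10, a collectin (-1.54 and -1.63). Abcc9, a subunit of potassium channels in mural cells, rose by 1.63 in Cyp1a2_CA and 1.24 in Gls2_CA. The list median was -0.13 in Cyp1a2_CA, against 0.17 over all genes, and -0.52 in Gls2_CA, against 0.14.

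Among other small leucine-rich proteoglycans 1 rose and 3 fell of 10 in Cyp1a2_CA, and 0 rose and 4 fell of 8 in Gls2_CA. Ogn (osteoglycin) fell in both (log2 -1.64 and -2.13). Fmod (fibromodulin) fell by 3.73 in Gls2_CA, and its value in Cyp1a2_CA was -0.82 (adjusted p = 0.407), or -3.09 (adjusted p = 6.14e-06) without the Ttn-high libraries. Portal fibroblast and mesothelial genes split, with 4 up and 4 down of 14 in Cyp1a2_CA and 5 up and 5 down of 13 in Gls2_CA. Dpt (dermatopontin) fell (log2 -2.59 and -3.63), and so did Thy1, a portal fibroblast surface protein (-1.41 and -1.52). Eln (elastin) rose by 3.19 and 3.57, or by 2.37 and 1.60 without the Ttn-high libraries, and the Gls2_CA rise did not pass with a random effect of animal (1.95, adjusted p = 0.0989).

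Of other contractile and myofibroblast genes, 11 rose, 1 fell and 8 did not pass of 20 in Cyp1a2_CA, and 11 rose, 2 fell and 4 did not pass of 17 in Gls2_CA. Their list medians were 1.498, against 0.17 over all genes, and 1.39, against 0.14. Tpm1 (tropomyosin) had 425 CPM in Cyp1a2_CA and 309.6 CPM in Gls2_CA, against 15.0 CPM in WT, and Cald1 (caldesmon) had 2546 and 2395 CPM, against 259.8 CPM. Loxl2, a lysyl oxidase that crosslinks collagen, rose by 2.09 and 1.39. Fn1 (fibronectin), also made by hepatocytes, rose by 1.64 in both, but it was 0.43 in each once length and GC were offset (adjusted p = 0.228 and 0.387). Smooth muscle and pericyte markers rose in 5 and fell in 1 of 10 in Cyp1a2_CA, and rose in 3 and fell in 1 of 9 in Gls2_CA. Myh11, smooth muscle myosin, rose by 1.63 and 1.46, the second becoming 0.66 (adjusted p = 0.126) once length and GC were offset. Pln (phospholamban) fell (log2 -0.92 and -1.22), the first becoming -0.45 (adjusted p = 0.107) with that offset.

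Of the ligand and partner genes of the PDGF receptors, 4 rose and 1 fell in each comparison, of 8 and of 7 tested. Pdgfa, the ligand of Pdgfra, had 26.3 CPM in Cyp1a2_CA and 28.9 CPM in Gls2_CA, against 7.08 CPM in WT. Pdgfc, which also binds Pdgfra, rose by 1.91 and 1.66. Plat, the tissue plasminogen activator that processes Pdgfc, rose by 5.53 and 5.20, against a WT level of 0.338 CPM. Without the animal of the Ttn-high replicate 3 the Plat value in Gls2_CA was 3.93. Without the Ttn-high replicate 8 that in Cyp1a2_CA was 5.08. Around Hgf, 2 rose and 3 fell of 9 and of 8 tested. Its receptor Met fell (log2 -0.50 and -0.61), the second value being -0.52 (adjusted p = 0.0571) with no filter on low counts. Plg (plasminogen), a hepatocyte product, fell too (-2.07 and -2.46). St14 (matriptase) rose by 4.57 and 4.62, or by 1.25 and 2.75 without the Ttn-high libraries. Its calls were lost in limma-voom, with quality weights in Cyp1a2_CA (1.43, adjusted p = 0.105) and with a random effect of animal in Gls2_CA (2.30, adjusted p = 0.277).

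All 6 genes of reelin signalling passed in both comparisons, 5 up and 1 down, where 70.9% and 73.2% of all genes passed, which for so few genes leaves the count near the background. Vldlr, a reelin receptor that also binds lipoproteins, had 211 CPM in Cyp1a2_CA and 150.5 CPM in Gls2_CA, against 0.695 CPM in WT. The kinase gene Fyn rose by 1.03 and 1.10 and the adaptor gene Crk by 0.94 and 0.98. Among TGF-beta genes 6 rose and 2 fell of 14 in Cyp1a2_CA, and 5 rose and 1 fell of 14 in Gls2_CA. Tgfb2 rose by 4.36 and 4.46, or by 1.96 and 3.07 without the Ttn-high libraries, while the co-receptor Tgfbr3 fell (log2 -1.78 and -2.10). Among retinoid partners of Lrat 3 rose and 3 fell of 9 and of 8. Ces1d, a carboxylesterase, fell (log2 -2.59 and -2.96), and Plin2, a lipid droplet coat protein, rose by 2.02 and 1.65. Matrix proteases and their inhibitors, the family of Timp1 and its targets, gave 2 up and 2 down of 14 in Cyp1a2_CA and 2 up and 7 down of 13 in Gls2_CA, with Mmp12, the macrophage elastase, up by 4.79 and 4.24.

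**Figure D4:**
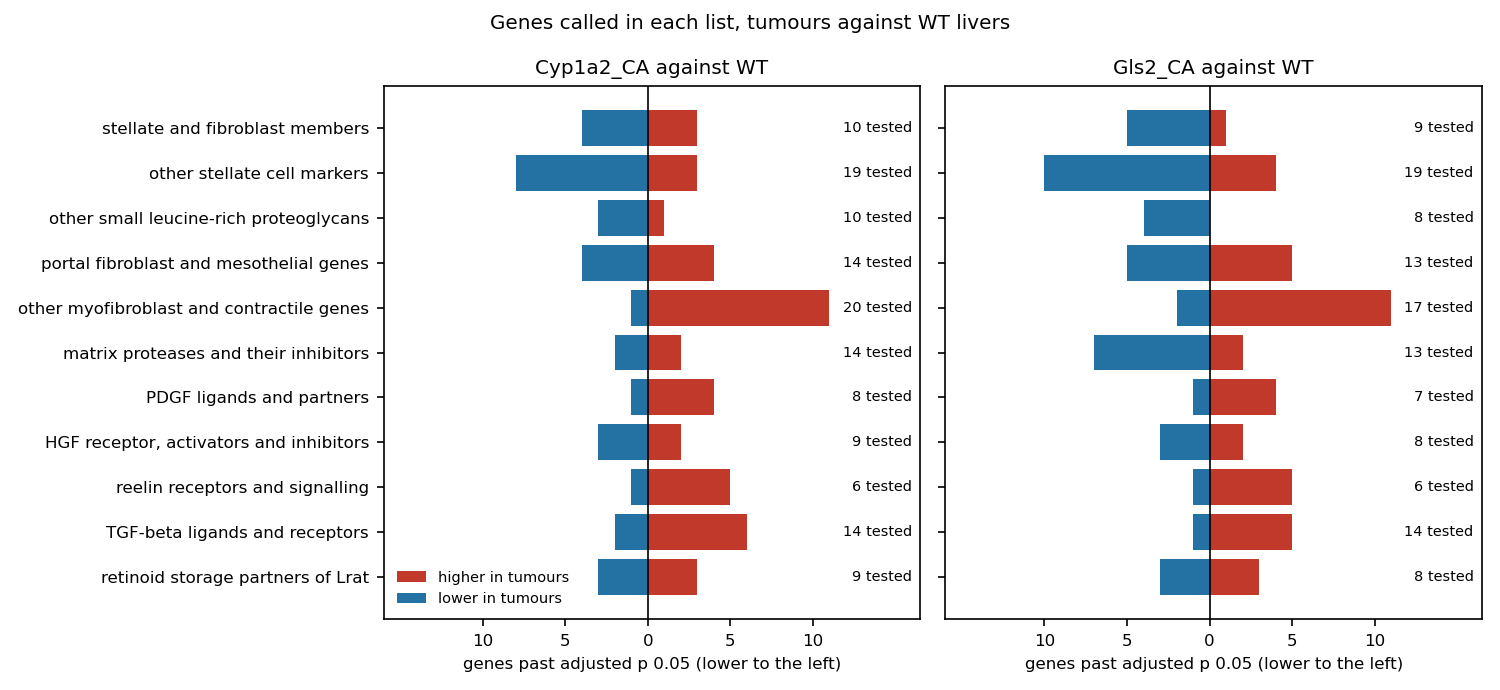
Number of genes in each list with an adjusted p under 0.05 against WT, higher in tumours to the right and lower to the left, for Cyp1a2_CA and Gls2_CA. The number tested stands at the right of each bar. The contractile list has 11 genes to the right in both panels, and the list of other stellate cell markers has 8 and 10 to the left.

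Other resident cell types of the liver also moved against WT. Hepatocyte markers fell in 10 of 12 in Cyp1a2_CA and 9 of 12 in Gls2_CA, with 0 rising. Liver endothelium markers fell in 7 and rose in 2 of 11 in Cyp1a2_CA, and fell in 7 and rose in 1 of 11 in Gls2_CA. Stab2, a scavenger receptor of sinusoidal endothelium, had 29.1 CPM in Cyp1a2_CA and 27.1 CPM in Gls2_CA, against 141 CPM in WT. Kupffer cell and macrophage markers fell in 6 and rose in 0 of 11 in Cyp1a2_CA, and fell in 7 and rose in 2 of 11 in Gls2_CA, and Clec4f, specific to Kupffer cells in mice, fell (log2 -2.92 and -2.56). Of 6 genes in the lymphatic list, 4 were tested, with 1 up and 3 down in both, namely Lyve1, Flt4 and Mmrn1 down. Pdpn and Ccl21a did not pass the filter on low counts. Whether the falls came from lymphatic cells was not tested. Of 10 neural and Schwann markers, only 4 were tested in Cyp1a2_CA and 3 in Gls2_CA, and all of these rose. The others did not pass the filter on low counts, so these counts do not stand for the list. Over all genes tested, 38.3% and 39.2% rose. Cholangiocyte markers gave 4 up and 0 down of 8, and 4 up and 1 down of 7. The falls of Lrat and Des therefore stood beside falls of many, but not all, endothelial, Kupffer cell and hepatocyte markers, whose part in them was not tested.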

How the data were processed

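Libraries were made from frozen tissue RNA, extracted with TRIzol and PureLink and prepared with the Nugen Ovation system, per the labels' protocols. The authors deposited raw counts per gene for 26 libraries, on mm10 per the submitters' processing notes. For aligner, counter, annotation and strand, settings were not given in the sources used here. Counts of libraries sharing an animal number were summed. Each pair of groups was fitted alone in edgeR 4.0.16 (R 4.3.3, filterByExpr, TMM, quasi-likelihood test, Benjamini-Hochberg threshold 0.05). The fit was also run on simulated data, in which far fewer genes changed than were called against WT here. That run does not measure errors in these comparisons. DESeq2 1.42.0 and limma 3.58.1 were alternatives, besides other scalings, filters, replicate units, a length and GC offset, thinning and leave-one-out fits. Gene positions and exon lengths were taken from GENCODE M21 by symbol (74.4% of 35976 genes matched, and 88.1% to 90.3% of those tested), promoters from RefSeq. Each WT library was taken as 1 animal, which the labels do not state, so p-values measure the spread between these samples. Besides the markers, Ttn and Arid2, the genes named come from 19 lists, up to 3 per list with the smallest p in each comparison with WT, and the muscle genes at or near 0 are named for their role. The markers and lists were chosen with earlier results of these data known.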

Additional observations from a re-analysis of the deposited data

Results flagged for a closer look

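In 30 sets of animals (10 markers in Cyp1a2_CA, Gls2_CA and WT), 6 held 1 animal set apart from the others by Dixon's criterion, each time by a high value. That criterion is set at about 1 set in 20 for independent, normally distributed values. CPM were used without a log scale and the sets share animals, so that rate does not hold here and 6 is a description only. In Cyp1a2_CA, Reln stood at 490.7 CPM in the animal of replicate 7, against a next highest 186 CPM, and Timp1 in the same animal at 16.4 CPM, against 3.92 CPM. Acta2 stood at 127 CPM in the animal of Cyp1a2_CA replicate 8, against 30.2 CPM. In Gls2_CA the animal of replicate 3 stood apart in Dcn (73.0 CPM, next highest 48.0), in Pdgfra (126 CPM, next highest 10.3) and in Timp1 (2.13 CPM, next highest 0.520). The Acta2 value and the 3 of Gls2_CA come from Ttn-high libraries.

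The single Cyp1a2_C library, which enters no test, was above the highest WT library in 6 markers. It had 173 CPM of Dcn against a WT maximum of 164, 223 CPM of Pdgfra against 11.6, and 33.9 CPM of Pdgfrb against 9.71. It had 91.7 CPM of Acta2 against 2.42, 21.5 CPM of Hgf against 18.0, and 14.7 CPM of Timp1 against 0.183.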

How the results depend on the processing

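Over 26 alternatives for Cyp1a2_CA and 23 for Gls2_CA against WT, Lrat, Des and Lum kept their direction and their call. Lrat ranged from -2.88 to -2.53 and from -2.90 to -2.54 on the log2 scale, Des from -2.37 to -1.81 and from -2.41 to -2.02, and Lum from -2.88 to -1.30 and from -3.04 to -1.91. Dcn and Reln kept theirs in Gls2_CA, and Acta2 in Cyp1a2_CA. The number of markers called ranged from 5 to 7 in Cyp1a2_CA and from 6 to 7 in Gls2_CA with 1 animal left out, and that of all genes from 11497 to 12004 and from 10694 to 11879. Between the drivers both stayed at 0 with 1 animal left out, while DESeq2 called 20 genes, limma-voom with quality weights 10 and every library as a replicate 6.

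Signs changed for values that had not passed, and for Pdgfra; the cause was not tested. In Cyp1a2_CA against WT, Reln was -0.17 with upper-quartile factors, -0.23 in limma-voom, -1.84 with the length and GC offset, -0.0096 with thinned counts and -0.37 to 0.18 with 1 animal left out. Hgf was -0.068, -0.0087 and -0.31 under the first 3 of these, -0.24 without the Ttn-high libraries and -0.10 to 0.26 with 1 animal left out. Without the Ttn-high libraries Pdgfra was -0.17 in Cyp1a2_CA and -0.18 in Gls2_CA. In Gls2_CA it was also -0.073 in limma-voom and -0.18 to 2.11 with 1 animal left out, and Pdgfrb was -0.34 with the offset. Upper-quartile factors moved the median of all genes to -0.05, against 0.17, in Cyp1a2_CA and to -0.09, against 0.14, in Gls2_CA. The length and GC offset moved it to -0.018 and -0.024.

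In Cyp1a2_CA against Gls2_CA, Lrat lay near 0 and was -0.0014 with upper-quartile factors, -0.0096 with no filter, -0.093 in limma-voom, -0.062 with every library, -0.11 with a random effect, -0.038 with the offset, -0.14 with the title letter as a covariate and -0.14 to 0.13 with 1 animal left out. Pdgfra was -0.70 in DESeq2, -0.56 with the letter and -0.69 to 2.19 with 1 animal left out. The letter also gave -0.13 for Des, -0.092 for Lum and -0.27 for Timp1. Without the Ttn-high libraries the values were -0.13 for Lrat, -0.084 for Dcn, -0.21 for Des, -0.0044 for Pdgfra, -0.034 for Acta2, -0.10 for Lum and -0.082 for Hgf.

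A random effect of animal could not be fitted for Cyp1a2_CA against WT, where 1 animal had more than 1 library, and Timp1 passed the filter under 17 of 26 alternatives there. No paired analysis was possible because tumour titles carry animal numbers and share no replicate number with WT. WT libraries held fewer counts than tumour libraries, which limits Timp1 most.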
